A study of Mus musculus with 15 samples.

Results

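The chains of the laminins, the nidogens, the proteoglycans perlecan (Hspg2) and agrin (Agrn), and the integrin subunits were described in mouse embryonic fibroblasts (MEFs) driven towards fat cells. Members were the protein-coding genes chosen by their symbol (Lama, Lamb, Lamc, Nid, Hspg2, Agrn, Itga and Itgb genes) that had 10 or more counts in at least 3 samples. Of 41 genes with such symbols, 34 met the count rule, among 46603 genes in the files, and all 34 were among the 15997 genes tested. They were 9 laminin chains, 2 nidogens, the 2 proteoglycans, 14 integrin alpha and 7 integrin beta subunits. Lama1, Lamc3, Itgad, Itgal, Itgam, Itgax and Itgb6 did not reach the count rule and were not members.

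A laminin is a trimer of an alpha, a beta and a gamma chain, secreted into the basement membrane, where nidogens and perlecan join it to the collagen IV network. Integrins are receptors of an alpha and a beta subunit that span the cell membrane and tie this matrix, or fibronectin and fibrillar collagen, to the actin skeleton. Fibroblasts adhere mostly through integrins to fibronectin and fibrillar collagen, whereas a mature fat cell is surrounded by a basement membrane of its own.

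RNA from wild-type BALB/c MEFs, taken from embryos 10.5 days old, was sequenced in 15 samples that form 5 conditions of 3 samples each (replicates 1, 3 and 4). MEFD0 were the cells at day 0, and MEFD3min and MEFD5min were kept in DMEM with 10% foetal bovine serum until day 3 and day 5. MEFD3plu received the same medium with 0.5 mM IBMX, which raises cyclic AMP, 10 μg/mL insulin, 1 μM dexamethasone, a glucocorticoid, and 10 μM rosiglitazone, a PPARγ agonist, from confluence to day 3. For MEFD5plu these agents were taken away at day 3 and the cells were held in growth medium to day 5, so that MEFD5plu and MEFD3plu differ in both time and medium. The study's methods describe its results in general as means of independent experiments. Neither they nor the labels say that the sequenced replicates came from separate cultures, so the p-values measure the spread between these samples, which may be technical.

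Total counts ran from 24030558 to 37281126 a sample. The 8 adipocyte markers summed to between 42.7 and 65.5 CPM (counts scaled to the TMM-normalised library size) in the 9 untreated samples and to between 9563 and 13257 CPM in the 6 treated ones. The 8 fibroblast markers summed to between 8252 and 28085 CPM over the 5 conditions, with their highest sums in MEFD3min. Single markers of that list were not high throughout and moved in different directions. Mean Dcn was 15.3 CPM in MEFD0 and 2830 CPM in MEFD3min, whereas mean Vim was 6542 CPM in MEFD0 and 2814 CPM in MEFD3min. Cells that changed and cells that did not are mixed in such bulk samples, so less RNA per cell and fewer cells of a type cannot be told apart. MEFD3min replicate 3 stood apart for the members: 27 of 34 lay above their condition's mean there, with a median deviation of 0.27 on the log2 scale, and Hspg2 had 2463 CPM against 926 and 971 in the other MEFD3min samples. The treatment calls at day 3 that were lost without it are given with both values.

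Treatment lowered more members than it raised at both days. In MEFD3plu/MEFD3min 24 of 34 members passed an adjusted p of 0.05 (edgeR quasi-likelihood test, Benjamini-Hochberg over all genes tested), against a background of 56.1% of all genes. Of these, 4 were higher, or 11.8% against 28.0% of all genes, and 20 were lower, or 58.8% against 28.0% of all genes. In MEFD5plu/MEFD5min 19 members passed, against 50.5% of all genes, with 6 higher (17.6%, background 26.3%) and 13 lower (38.2%, background 24.2%). The median log2 fold change of the members was -0.86 at day 3 and -0.26 at day 5, beside -6.0e-04 and 0.01 over all genes tested. Scaled by total counts alone, which moved the median of all genes at day 5 by -0.16, the day 5 split was 2 higher and 18 lower. The share of all genes in each direction was not computed at that scaling.

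**Figure D1:**
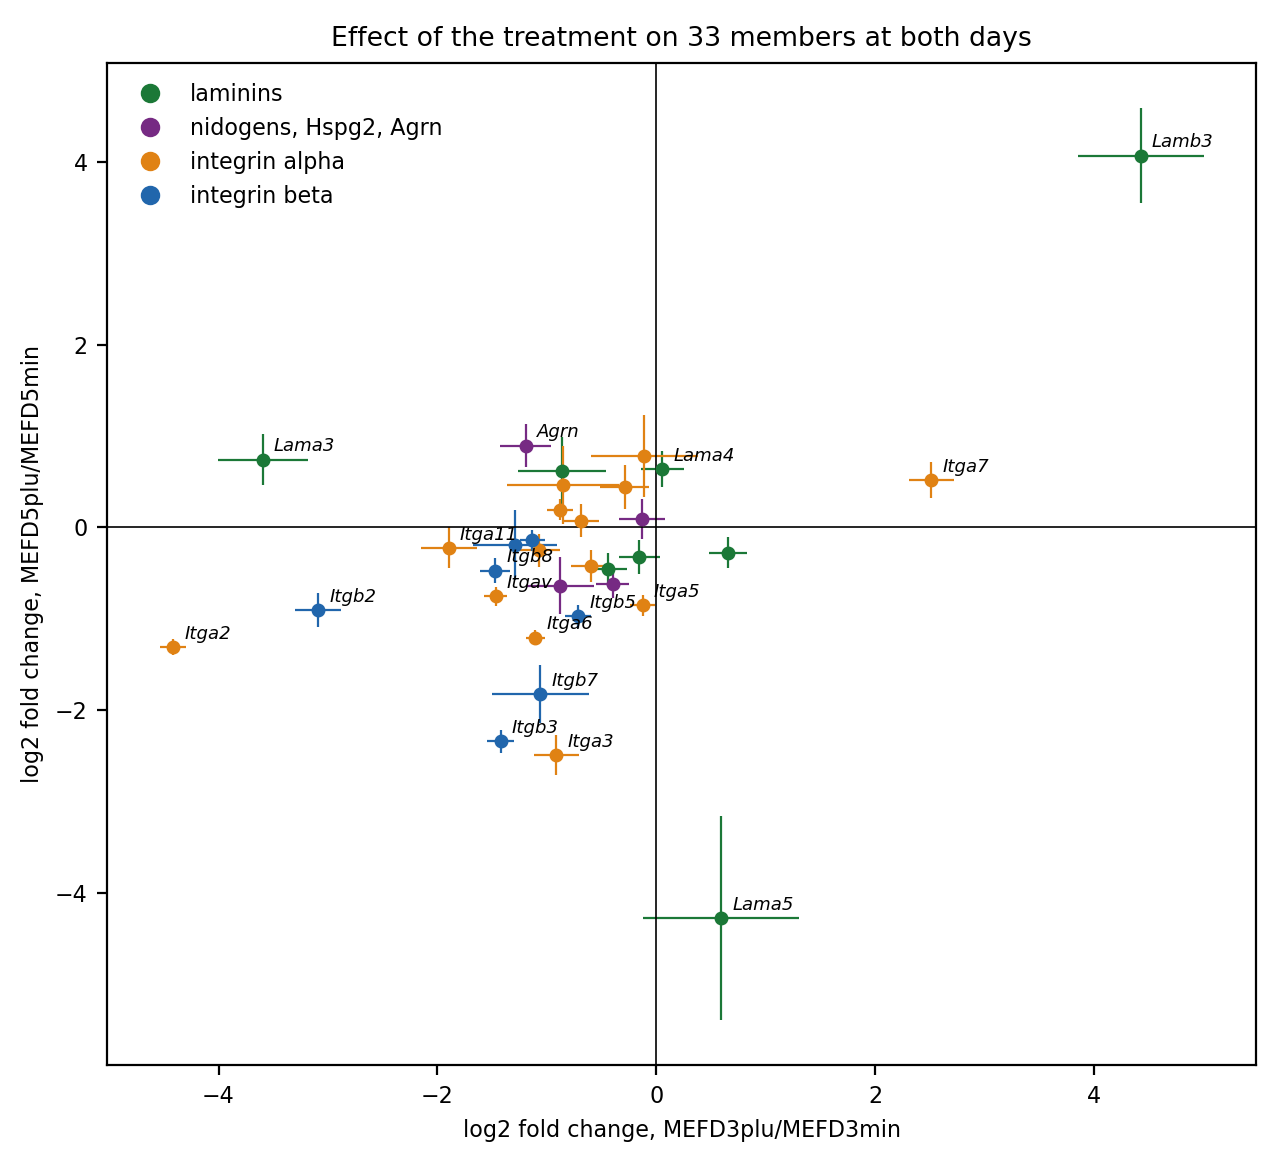
Log2 fold change of 33 of the 34 members with treatment at day 3 (horizontal axis, MEFD3plu/MEFD3min) and at day 5 (vertical axis, MEFD5plu/MEFD5min), with bars of 1 standard error from 3 samples a condition. Lamb3 stands at the upper right, Itga2 at the far left and Lama3 and Agrn on opposite sides of 0 at the 2 days, and the points of Lamb3, Lama3 and Lama5 rest on few counts, so that their fitted values depend on the prior count and are not bounds.

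The effect of treatment itself differed between the days for 19 of 34 members (interaction term, edgeR adjusted p under 0.05, background 48.5% of all genes). It was more positive at day 3 for 7 members (20.6%, background 22.6%) and more negative at day 3 for 12 (35.3%, background 25.8%). Among the 12 members called and at least 2-fold lower at day 3, the difference between days was smallest for Itga6 (0.10 ± 0.12, edgeR adjusted p = 0.512).

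Untreated cells had more members rising than falling over the first 3 days. From MEFD0 to MEFD3min 27 members passed, against 60.0% of all genes, 22 of them higher (64.7%, background 31.4%) and 5 lower (14.7%, background 28.6%), and the median log2 fold change was 0.99 beside 0.04 for all genes. From MEFD3min to MEFD5min 21 passed (background 42.8%), 9 higher (26.5%, background 21.3%) and 12 lower (35.3%, background 21.5%). From MEFD3plu to MEFD5plu 29 passed (background 63.0%), 16 higher (47.1%, background 33.8%) and 13 lower (38.2%, background 29.2%). The highest mean was in MEFD3min for 12 members, in MEFD0 and MEFD5min for 7 each, in MEFD5plu for 5 and in MEFD3plu for 3. The lowest was in MEFD0 for 14 and in MEFD3plu for 13.

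**Figure D2:**
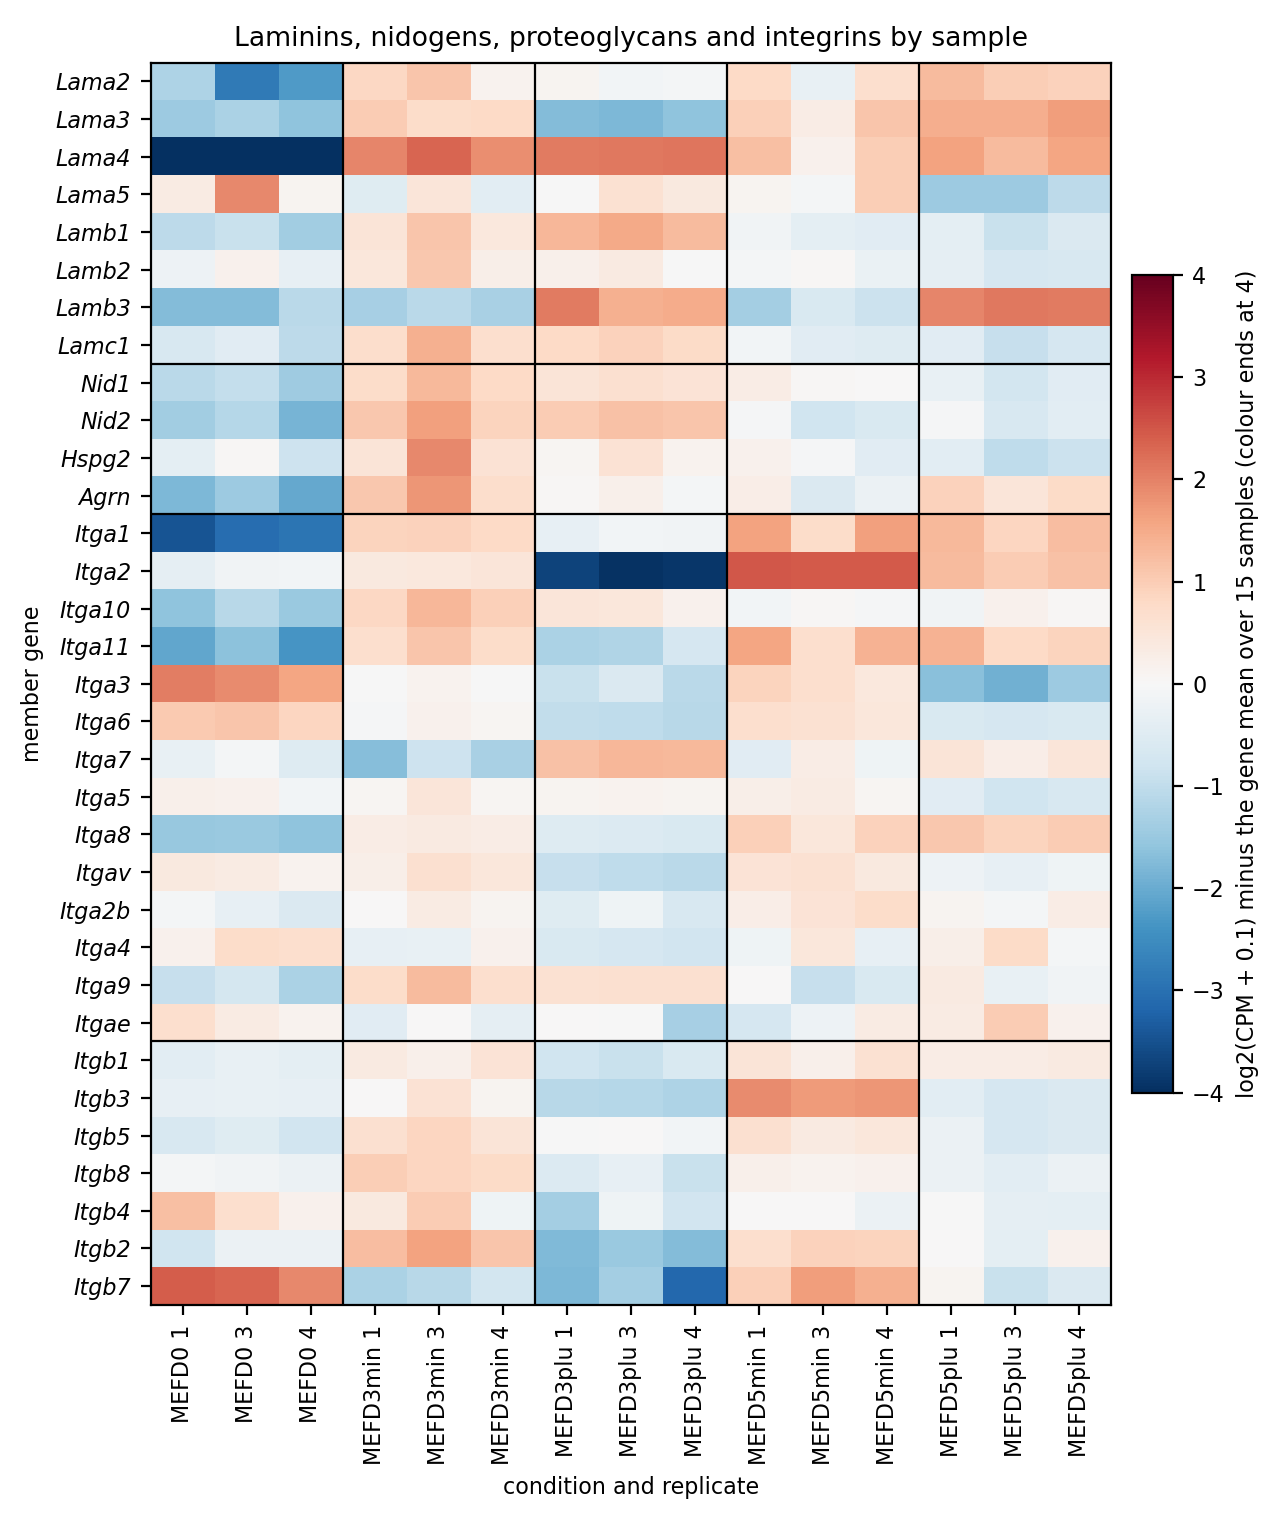
Each row is 1 of 33 members and each column a sample, and the colour gives log2(CPM + 0.1) minus the gene's mean over the 15 samples, from blue (low) to red (high), with values past 4 in either direction in the end colour. Lama4 and Itga1 are darkest blue in the 3 MEFD0 samples, Itga2 in the 3 MEFD3plu samples, and MEFD3min replicate 3 is redder than its neighbours for most laminins, nidogens and proteoglycans.

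Among the laminin alpha chains, Lama4 (chr10:38965515-39110188, build GRCm38), the alpha chain of mesenchymal and vascular basement membranes and of the fat cell's own, was nearly absent at day 0 and abundant afterwards. It measured 0.206, 0.557 and 0.67 CPM in MEFD0 (6, 21 and 24 counts) and 179, 231 and 168 CPM in MEFD3min. All MEFD3min samples lay far above all MEFD0 samples (log2 fold change 8.60 ± 0.32 SE, edgeR adjusted p = 8.01e-13), a rise of 387-fold in untreated medium and the largest of any member in that comparison.

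With treatment, Lama4 measured 194, 201 and 206 CPM in MEFD3plu, within the range of the untreated samples (log2 fold change 0.06 ± 0.20 SE, edgeR adjusted p = 0.829). By day 5 the gene measured 107, 52.6 and 91.9 CPM in MEFD5min and 142, 111 and 139 CPM in MEFD5plu. The treated samples were all higher at that day (log2 fold change 0.64 ± 0.20 SE, edgeR adjusted p = 0.0128), a 1.56-fold difference. Without MEFD5min replicate 3, the lowest sample and the one of least depth, the log2 value was 0.40 with an edgeR adjusted p of 0.055, and scaled by total counts alone it was 0.48 with an edgeR adjusted p of 0.052. Per kilobase of exon (CPM per kb, over the union of a gene's exons), Lama4 made up 98.9 ± 0.142% of the summed laminin alpha level in MEFD3min and 97.7 ± 0.176% in MEFD5plu, and 41.3 ± 20.6% in MEFD0, where all alpha chains together had few counts.

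The other alpha chains were scarce. Lama3, a chain of epithelial laminin, had 33, 30 and 26 counts in MEFD3min and 2, 2 and 3 in MEFD3plu. The untreated group was higher by a ratio of 12.6 (95% exact counting interval 5.89 to 32.4), an interval that covers counting error only. The fit gave log2 fold change -3.60 ± 0.41 SE, edgeR adjusted p = 9.76e-07. At day 5 the order was turned, with 35, 15 and 41 counts in MEFD5min and 48, 44 and 56 in MEFD5plu (log2 fold change 0.74 ± 0.28 SE, edgeR adjusted p = 0.0362). That call was lost in DESeq2, with total counts alone, with no filter on low counts, and without MEFD5min replicate 1 or 3 or any 1 of the MEFD5plu samples (adjusted p-values from 0.061 to 0.17). MEFD0 had 3, 5 and 3 counts.

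Lama5, the broadly expressed alpha chain of adult basement membranes, had 7, 4 and 16 counts in MEFD5min and 0, 0 and 1 in MEFD5plu. That is a ratio of 26.8 (95% exact counting interval 4.42 to 1097) in favour of the untreated group (log2 fold change -4.28 ± 1.12 SE, edgeR adjusted p = 0.00422), an estimate that rests on 1 count in MEFD5plu (log2 fold change -6.16 without that sample, replicate 4). At day 3 it had 3, 10 and 3 counts untreated and 5, 10 and 9 treated, which did not pass the test (log2 fold change 0.60 ± 0.71 SE, edgeR adjusted p = 0.5). MEFD0 had 7, 35 and 7 counts, and its replicate 3 stood above the other samples. Lama2, the alpha chain of muscle and nerve laminin, stayed between 0.027 and 2.06 CPM, rose from MEFD0 to MEFD3min (log2 fold change 3.51 ± 0.52 SE, edgeR adjusted p = 1.68e-05, and 4.59 on the log2 scale without MEFD0 replicate 1) and passed with treatment at neither day.

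Lamb1 (chr12:31265234-31329644), the beta chain of most embryonic laminins, was the most abundant laminin transcript per length in every condition and rose with treatment at day 3. It measured 929.6, 1381 and 871 CPM in MEFD3min and 1639, 1834 and 1542 CPM in MEFD3plu. All 3 treated samples were above all untreated ones (log2 fold change 0.66 ± 0.17 SE, edgeR adjusted p = 0.00337), a 1.58-fold difference. Day 5 samples held 587, 492 and 474 CPM in MEFD5min and 496, 352 and 433 CPM in MEFD5plu, which overlapped (log2 fold change -0.28 ± 0.17 SE, edgeR adjusted p = 0.188). The interaction term was 0.93 ± 0.24 (edgeR adjusted p = 0.004). MEFD0 held 314, 351 and 248 CPM, less than MEFD3min in each sample (log2 fold change 1.80 ± 0.17 SE, edgeR adjusted p = 1.12e-07).

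Lamb2, a beta chain known from the neuromuscular junction and the kidney glomerulus, went the other way. It was lower with treatment at day 3 (log2 fold change -0.44 ± 0.18 SE, edgeR adjusted p = 0.0437) and at day 5 (log2 fold change -0.46 ± 0.18 SE, edgeR adjusted p = 0.0439), on values of 44.4 to 150.0 CPM over the 15 samples. Without MEFD3min replicate 3 the day 3 value was -0.15 with an edgeR adjusted p of 0.37. The day 3 call was also lost without MEFD3plu replicate 1 or 4 (edgeR adjusted p = 0.092 and 0.15). With total counts alone and with the compared samples alone it was lost too (edgeR adjusted p = 0.071 and 0.092). The day 5 call was lost without MEFD5min replicate 1 or 3 or MEFD5plu replicate 3 or 4 (edgeR adjusted p from 0.090 to 0.14). The share of Lamb1 in the summed beta level per length was 85.7 ± 0.78% in MEFD3min and 92.6 ± 0.315% in MEFD3plu, with no overlap. The exact two-sided permutation test of 3 samples against 3 gave p = 0.1, the smallest it allows, and 0.155 after adjustment over 68 shares.

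Lamb3, a beta chain of the epithelial laminin of the skin, was the member with the highest rise on treatment at both days, at a low level. It had 0, 0 and 2 counts in MEFD0, 1, 2 and 1 in MEFD3min and 38, 25 and 29 in MEFD3plu. At day 5 it had 1, 3 and 3 counts in MEFD5min and 40, 41 and 43 in MEFD5plu. Only the 6 treated samples reached 10 counts, so Lamb3 met the count rule through the groups where it was high. Its separation from the untreated samples and its rank among the members are therefore set in part by that rule. The treated groups stood clear of all untreated samples, by a ratio of 23.1 (95% exact counting interval 8.73 to 86.7) at day 3 and 17.8 (95% exact counting interval 8.41 to 45.3) at day 5, and the fit gave 4.43 ± 0.58 (edgeR adjusted p = 4.52e-06) and 4.07 ± 0.52 (edgeR adjusted p = 5.92e-06) on the log2 scale. The effect did not differ detectably between the days (log2 difference between the days 0.35 ± 0.84 SE, edgeR adjusted p = 0.761).

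Because Lamb3 rose most at both days, Itga2 fell most at day 3 and Itgb1 is the most abundant integrin, the bases around their transcription starts (250 before and 50 after, RefSeq, build GRCm38.p6) are shown where each gene is described. Windows were found for 23 of 34 members. They were searched on both strands for the AP-1 motif TGANTCA, the cyclic AMP response element TGACGTCA, the C/EBP motif TTNCNNAA, the nuclear receptor half-site AGGTCA, the glucocorticoid receptor half-site AGAACA, the TEAD motif GGAATG, the Sp/KLF motif GGGCGG and the CArG box, and matches are in capitals. No match overlapped another in the 3 windows shown. RefSeq gives 2 windows for Lamb3, and the window shown, on the plus strand at chr1:193301744-193302043, held a single match, to the C/EBP motif, while the other, at chr1:193301993-193302292, held a glucocorticoid receptor half-site and a TEAD motif and no C/EBP match:
Lamb3: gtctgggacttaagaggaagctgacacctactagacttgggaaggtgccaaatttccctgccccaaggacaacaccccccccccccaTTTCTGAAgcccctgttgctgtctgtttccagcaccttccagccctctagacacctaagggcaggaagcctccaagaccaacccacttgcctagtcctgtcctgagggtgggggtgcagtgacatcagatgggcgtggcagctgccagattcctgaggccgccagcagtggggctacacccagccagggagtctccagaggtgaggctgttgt
A match is a description of the letters and not a bound site. C/EBP letters are common, in 40.7% of the 32851 windows of all genes and in 6 of the 23 members with a window, and the nuclear receptor half-site, in 16.3% of all windows, was in none of the members' windows.

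Lamc1 (chr1:153218922-153332786), the gamma chain of most laminins, did not pass with treatment at either day. It measured 404, 673 and 397 CPM in MEFD3min and 436, 469 and 419.9 CPM in MEFD3plu (log2 fold change -0.15 ± 0.19 SE, edgeR adjusted p = 0.511). It then measured 233, 180.1 and 174 CPM in MEFD5min and 181, 131 and 156 CPM in MEFD5plu (log2 fold change -0.32 ± 0.19 SE, edgeR adjusted p = 0.167). The groups overlapped at both days. From MEFD0 (159, 181 and 121 CPM) to MEFD3min it rose 3.2-fold (edgeR adjusted p = 9.85e-07). From day 3 to day 5 Lamc1 fell in the cells that had not been treated (-1.33 ± 0.19, edgeR adjusted p = 2.78e-05) and in those that had (-1.50 ± 0.19, edgeR adjusted p = 4.05e-06).

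The 7 epithelial markers summed to between 0.37 and 0.81 CPM in MEFD3min, 0.034 and 0.11 CPM in MEFD3plu, 0.11 and 0.17 CPM in MEFD5min and 0.45 and 1.31 CPM in MEFD5plu, and Krt5 had 0 counts in every sample. Nearly all of the sum was Krt8 and Cldn4 in MEFD3min (means 0.29 and 0.35 CPM) and Krt8 in MEFD5plu (0.67 CPM). Single markers went against the sum. Mean Cldn4 was 0.031 CPM in MEFD5min and 0 in MEFD5plu, and mean Krt14 was 0 in MEFD3min and 0.042 CPM in MEFD3plu. The part of these markers in the values of Lama3 and Lamb3 was not tested.

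Summed per length, the laminin alpha chains of MEFD0 amounted to 0.499 ± 0.158% of the gamma chains (mean ± SD, n = 3). At day 3 the figure was 27.9 ± 3.67% without treatment and 31.1 ± 2.17% with it, and at day 5 it was 29.3 ± 8.52% and 56.7 ± 3.28%. On these lengths the alpha chains were the scarcest class of the trimer in every condition, least so in MEFD5plu. The beta sum was 2.12 ± 0.114 times the gamma sum in MEFD3min and 3.38 ± 0.114 times in MEFD3plu. The ratios depend on the gene length used. With the length of 1 coding transcript per gene, an alternative chosen after the data were seen, alpha was 51.1 ± 6.70% of gamma in MEFD3min. In MEFD5plu it was 101.8 ± 5.62%, level with gamma within its spread, so that alpha was not clearly the scarcest class there.

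**Figure D3:**
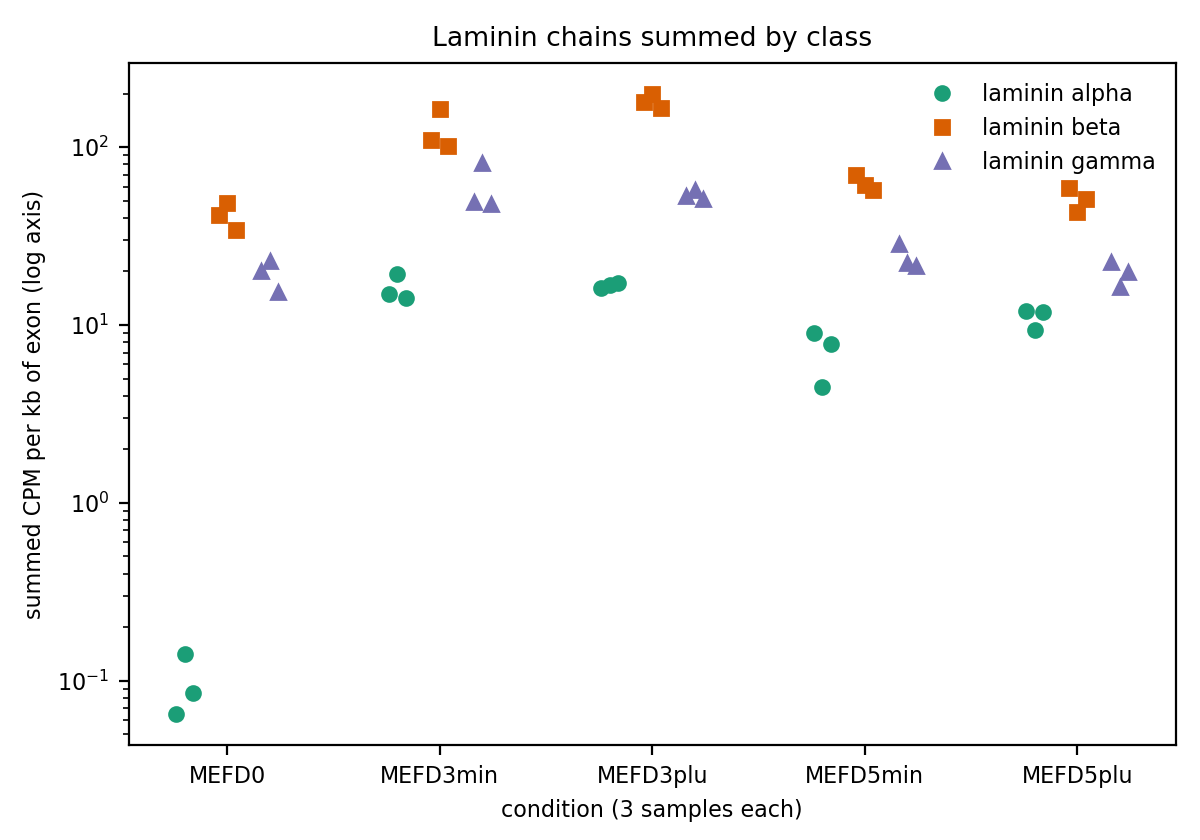
Summed CPM per kb of exon of the laminin alpha, beta and gamma chains (log axis) in each of the 15 samples, by condition. The alpha sums are at most 0.14 in the MEFD0 samples and at least 4.47 in every later sample, whereas the beta and gamma sums of MEFD0 are within the span of the later conditions or close below it.

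The nidogens and proteoglycans, which link and coat the laminin network, were highest in MEFD3min. Nid1 (chr13:13437551-13512269), the most abundant of them per length, measured 488, 533 and 383 CPM in MEFD0 and 1695, 2516 and 1776 CPM in MEFD3min (log2 fold change 2.09 ± 0.16 SE, edgeR adjusted p = 5.70e-09). With treatment it measured 1464, 1601 and 1477 CPM at day 3, below each untreated sample by a small margin (log2 fold change -0.40 ± 0.15 SE, edgeR adjusted p = 0.0369). Without MEFD3min replicate 3 this was -0.20 with an edgeR adjusted p of 0.23. The call was also lost when any 1 MEFD3plu sample was left out (edgeR adjusted p from 0.052 to 0.099). With total counts alone and with the compared samples alone it was lost too (edgeR adjusted p = 0.053 and 0.065). At day 5 the values were 1267, 1056 and 1034 CPM untreated and 828, 613 and 743 CPM treated, with no overlap (log2 fold change -0.62 ± 0.16 SE, edgeR adjusted p = 0.00311).

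Agrin, known for gathering acetylcholine receptors at the synapse and also a matrix proteoglycan, changed in opposite directions at the 2 days. Agrn measured 178, 290.1 and 139 CPM in MEFD3min and 87.6, 97.7 and 80.2 CPM in MEFD3plu. All treated samples were lower (log2 fold change -1.19 ± 0.24 SE, edgeR adjusted p = 3.49e-04). By day 5 the gene measured 101, 56.5 and 71.7 CPM untreated and 163, 120.3 and 145 CPM treated, and all treated samples were higher (log2 fold change 0.90 ± 0.24 SE, edgeR adjusted p = 0.00437). The interaction passed the test (log2 difference between the days -2.09 ± 0.33 SE, edgeR adjusted p = 6.99e-05). MEFD0 held 24.2, 31.0 and 20.6 CPM, the lowest of the conditions.

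Perlecan (Hspg2) ranged from 325 to 2463 CPM and was lower with treatment at day 3 (log2 fold change -0.88 ± 0.31 SE, edgeR adjusted p = 0.024). That call rested on MEFD3min replicate 3, and without it the log2 value was -0.26 with an edgeR adjusted p of 0.33. Without MEFD3plu replicate 1 or 4 the edgeR adjusted p was 0.085 and 0.071. The call was also lost in DESeq2 (adjusted p = 0.059) and with the compared samples alone (edgeR adjusted p = 0.062). The day 5 value was -0.64 ± 0.31 on the log2 scale (edgeR adjusted p = 0.0983), and with the replicate number as a block -0.61 with an edgeR adjusted p of 0.038. Nid2 ranged from 5.58 to 63.3 CPM, rose from MEFD0 to MEFD3min (log2 fold change 2.68 ± 0.23 SE, edgeR adjusted p = 2.63e-08) and passed with treatment at neither day. Of its exon bases 8.45% overlap Rtraf on the other strand, whose reads the counts may not separate.

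**Figure D4:**
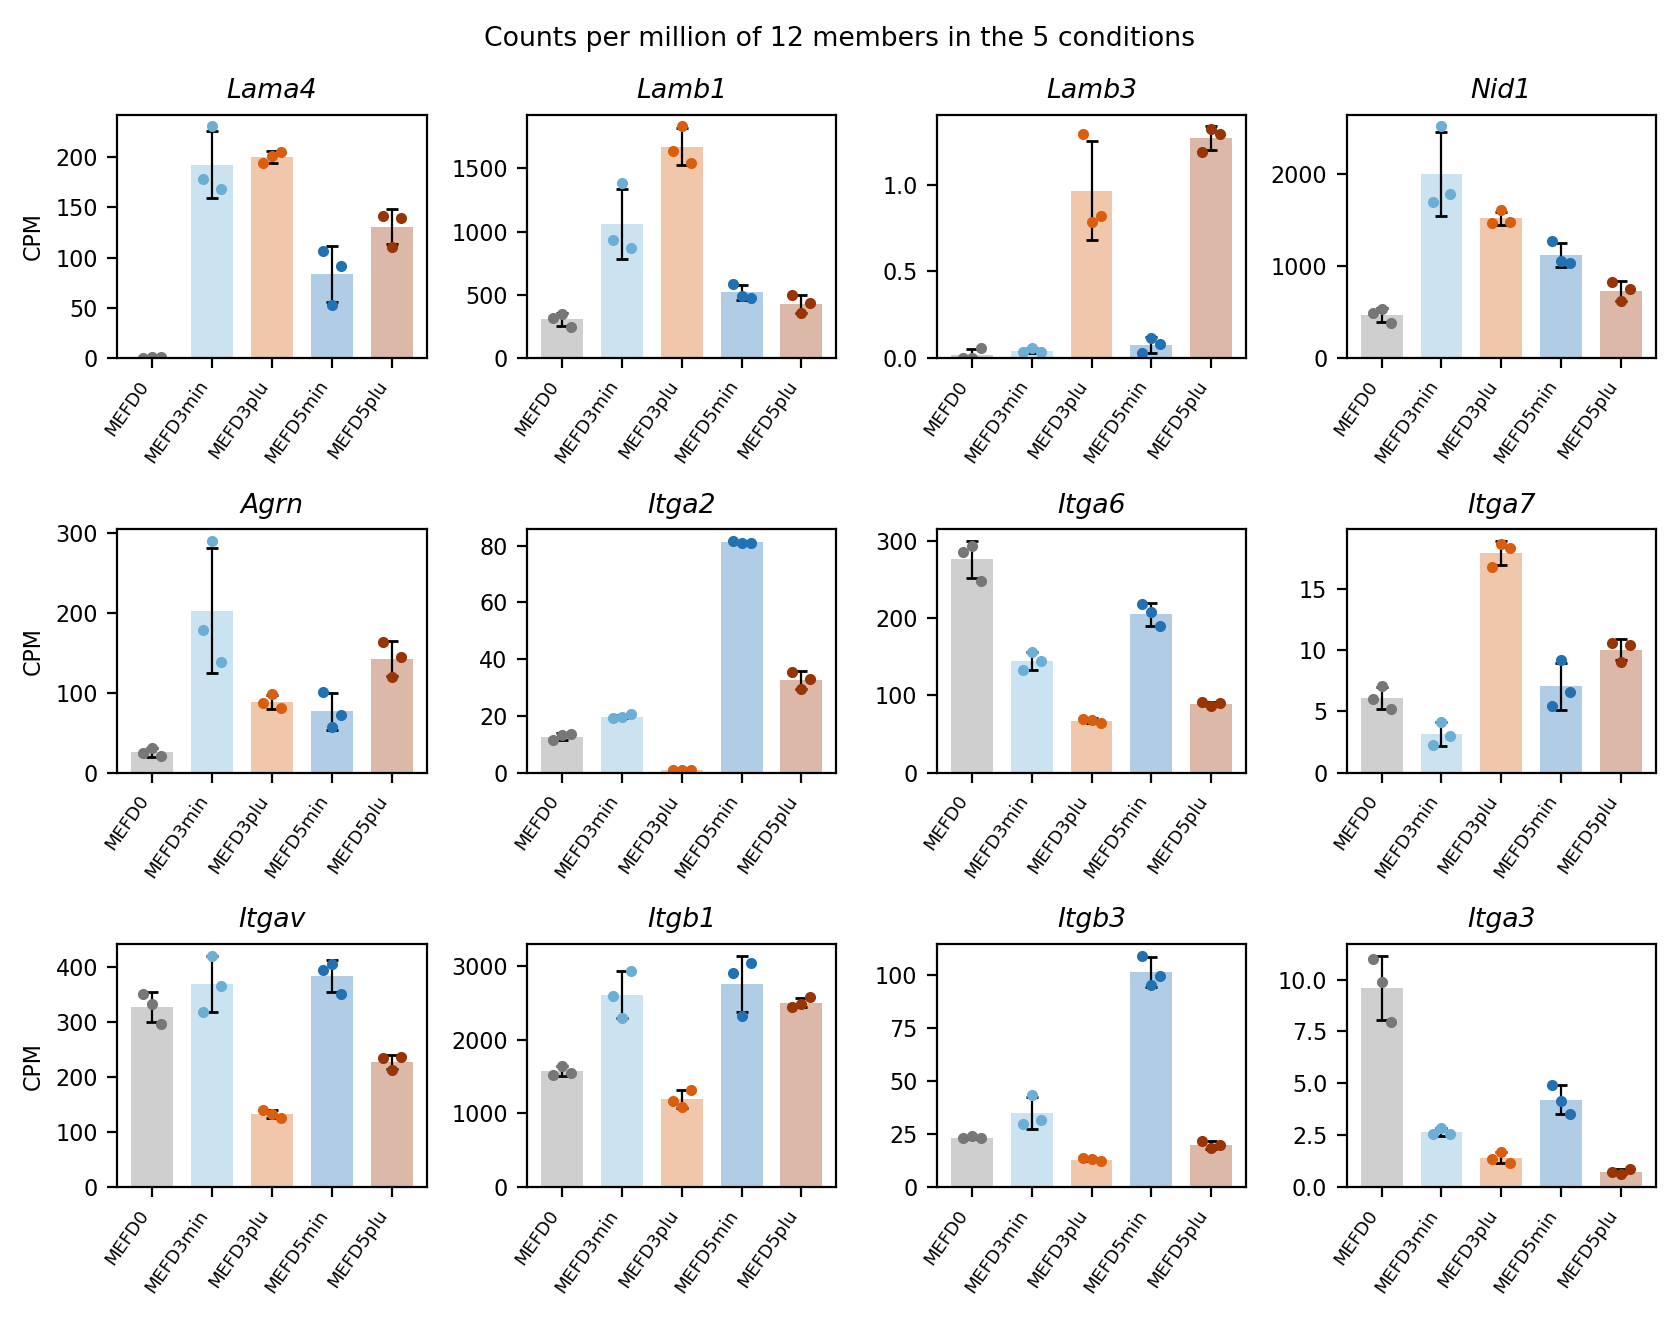
CPM of 12 members in the 5 conditions, with a bar at the mean, a line of 1 SD and a point for each of 3 samples, on axes that start at 0. Lama4 is near 0 in MEFD0 only, Itga2 and Itgb3 peak in MEFD5min, Itga7 and Lamb1 in MEFD3plu, and Itga6 and Itga3 in MEFD0.

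Of the integrins, 9 of 14 alpha subunits were lower and 1 higher in MEFD3plu, and 6 of 7 beta subunits were lower, beside 28.0% of all genes lower and 28.0% higher. At day 5, 5 of 14 alpha subunits were lower and 1 higher, and 5 of 7 beta subunits were lower, beside 24.2% of all genes lower and 26.3% higher. The collagen receptors, the alpha subunits Itga1, Itga2, Itga10 and Itga11, which all pair with Itgb1, were all lower with treatment at day 3. Itga2 (chr13:114833081-114932100) had the largest fall of any member at that day. It measured 19.3, 19.5 and 20.5 CPM in MEFD3min and 1.02, 0.846 and 0.902 CPM in MEFD3plu, a 21.3-fold difference (log2 fold change -4.42 ± 0.12 SE, edgeR adjusted p = 2.16e-14) with little spread in either group.

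At day 5 Itga2 stood at 81.7, 81.0 and 81.1 CPM in MEFD5min and 35.6, 29.5 and 33.2 CPM in MEFD5plu. The treated cells were still lower (log2 fold change -1.31 ± 0.09 SE, edgeR adjusted p = 2.67e-09), but by less than at day 3 (log2 difference between the days -3.11 ± 0.15 SE, edgeR adjusted p = 9.72e-11). Between MEFD3plu and MEFD5plu, the time in which the agents were taken away, the level rose 35.4-fold (edgeR adjusted p = 4.65e-14). Untreated cells also rose over those days, 4.12-fold (edgeR adjusted p = 2.84e-11), from 11.4, 13.1 and 13.5 CPM at day 0. The window around its start, on the minus strand at chr13:114932051-114932350, held 1 glucocorticoid receptor half-site, which 19.0% of all windows hold, and 1 Sp/KLF motif, which 35.7% hold:
Itga2: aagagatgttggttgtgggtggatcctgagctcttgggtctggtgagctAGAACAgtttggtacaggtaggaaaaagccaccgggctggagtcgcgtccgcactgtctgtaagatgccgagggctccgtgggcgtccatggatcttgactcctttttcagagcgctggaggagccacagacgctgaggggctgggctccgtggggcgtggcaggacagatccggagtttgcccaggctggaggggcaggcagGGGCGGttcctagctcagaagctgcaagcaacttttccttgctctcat

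Itga11, a receptor of fibrillar collagen in fibroblasts, measured 7.55, 10.2 and 7.84 CPM in MEFD3min and 1.91, 1.97 and 2.93 CPM in MEFD3plu, with no overlap (log2 fold change -1.90 ± 0.26 SE, edgeR adjusted p = 6.76e-06). At day 5 it was at 14.1, 7.63 and 12.6 CPM untreated and 12.5, 8.28 and 8.77 CPM treated, which overlapped (log2 fold change -0.22 ± 0.23 SE, edgeR adjusted p = 0.438). MEFD0 held 1.03, 1.43 and 0.837 CPM.

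Itga1, a collagen receptor that also binds laminin, measured 2.3, 3.05 and 3.38 CPM in MEFD0 and 48.8, 49.5 and 45.9 CPM in MEFD3min, a rise of 16.4-fold (edgeR adjusted p = 7.99e-11). Treated cells at day 3 had 20.9, 24.4 and 23.5 CPM, below all untreated samples (log2 fold change -1.07 ± 0.19 SE, edgeR adjusted p = 1.03e-04). At day 5 the groups overlapped, with 80.3, 43.5 and 81.6 CPM untreated and 64.3, 47.1 and 61.4 CPM treated (log2 fold change -0.25 ± 0.18 SE, edgeR adjusted p = 0.263). Itga10, a collagen receptor of cartilage, ranged from 1.06 to 8.90 CPM and was lower at day 3 (log2 fold change -0.69 ± 0.17 SE, edgeR adjusted p = 0.00244). Of its exon bases 33.5% overlap Gm42957 on the same strand, so that its counts are uncertain.

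Among the laminin receptors, the alpha subunits Itga3, Itga6 and Itga7 behaved unlike each other. Itga6, the main laminin receptor subunit here per length, measured 286, 294 and 249 CPM in MEFD0, 133, 156 and 144 in MEFD3min and 69.8, 68.3 and 63.7 in MEFD3plu. By day 5 the gene measured 218, 208 and 189 CPM in MEFD5min and 90.9, 85.8 and 89.9 in MEFD5plu. Treated samples were below all untreated ones at both days, 2.15-fold at day 3 (edgeR adjusted p = 8.44e-09) and 2.31-fold at day 5 (edgeR adjusted p = 6.50e-09).

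Itga7, the laminin receptor of muscle, was the single integrin alpha subunit that rose with treatment. It measured 2.22, 4.16 and 2.99 CPM in MEFD3min and 16.8, 18.6 and 18.4 CPM in MEFD3plu, a 5.71-fold difference with no overlap (log2 fold change 2.51 ± 0.21 SE, edgeR adjusted p = 1.58e-08). Day 5 samples held 5.42, 9.19 and 6.54 CPM untreated and 10.6, 9.06 and 10.4 CPM treated, which overlapped (log2 fold change 0.52 ± 0.19 SE, edgeR adjusted p = 0.0343). This call was lost with total counts alone, with the DESeq2 size factors and without MEFD5min replicate 1 or 4 or MEFD5plu replicate 1 or 4 (edgeR adjusted p from 0.051 to 0.17). MEFD0 held 6.0, 7.05 and 5.22 CPM. The 6 skeletal muscle markers summed to 0.24 to 0.44 CPM in MEFD3min and 0.78 to 1.18 CPM in MEFD3plu. Their sums were 0.36 to 1.05 CPM in MEFD5min and 1.87 to 2.35 CPM in MEFD5plu. Des made up most of the treated sums, with means of 0.94 CPM in MEFD3plu and 1.96 CPM in MEFD5plu. Its untreated means were 0.23 CPM at day 3 and 0.14 CPM at day 5. Acta1 had lower means in treated cells, 0.0094 against 0.074 CPM at day 3 and 0.13 against 0.64 CPM at day 5. The part of these markers in the rise of Itga7 was not tested.

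Itga3, a receptor of epithelial laminins, measured 11.0, 9.86 and 7.96 CPM in MEFD0 and less in all later samples. At day 3 it measured 2.54, 2.86 and 2.56 CPM untreated and 1.36, 1.69 and 1.18 treated (log2 fold change -0.91 ± 0.20 SE, edgeR adjusted p = 0.00107). It measured at day 5 4.94, 4.17 and 3.54 CPM untreated and 0.745, 0.612 and 0.874 treated (log2 fold change -2.49 ± 0.22 SE, edgeR adjusted p = 7.02e-08). The groups did not overlap at either day, and the fall was larger at day 5 (log2 difference between the days 1.58 ± 0.30 SE, edgeR adjusted p = 3.55e-04).

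The subunits that bind the RGD sequence of fibronectin and vitronectin include the most abundant alpha chains. Itga5 (chr15:103344286-103366763), the fibronectin receptor and the highest alpha subunit per length, measured 240.1, 235 and 196 CPM in MEFD0, 224, 298 and 224 in MEFD3min and 228, 230.2 and 225 in MEFD3plu. It overlapped between treated and untreated cells at day 3 (log2 fold change -0.12 ± 0.12 SE, edgeR adjusted p = 0.385). At day 5 it measured 248, 265 and 225 CPM untreated and 153, 122 and 134 CPM treated, and all treated samples were lower (log2 fold change -0.85 ± 0.12 SE, edgeR adjusted p = 1.42e-05). The effects at the 2 days differed (log2 difference between the days 0.73 ± 0.17 SE, edgeR adjusted p = 0.00157).

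Itgav, the alpha subunit of the vitronectin receptors, measured 318, 420.2 and 366 CPM in MEFD3min and 140.0, 133 and 126 CPM in MEFD3plu, a 2.77-fold difference (log2 fold change -1.47 ± 0.10 SE, edgeR adjusted p = 2.04e-09). By day 5 the gene measured 394, 405 and 351 CPM untreated and 234, 212 and 236 CPM treated (log2 fold change -0.75 ± 0.10 SE, edgeR adjusted p = 1.07e-05). MEFD0 held 351, 333 and 296 CPM. Treated samples were below all untreated ones at each day, and less so at day 5 (log2 difference between the days -0.71 ± 0.14 SE, edgeR adjusted p = 5.69e-04).

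The make-up of the alpha transcripts was compared as shares. Per length, Itga5 was 43.9 ± 2.02% of the summed alpha level in MEFD3min and 62.3 ± 0.659% in MEFD3plu, and Itgav 29.9 ± 1.28% and 16.7 ± 0.611%. At day 5 Itga5 was 37.5 ± 1.65% untreated and 36.4 ± 1.36% treated. The day 3 shares did not overlap (exact two-sided permutation p = 0.1, the smallest possible, 0.155 adjusted over 68 shares), and those of day 5 did (p = 0.5, 0.576 adjusted, the same exact test). Over the 68 shares, 20 of 34 at day 3 and 24 of 34 at day 5 reached that smallest p.

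**Figure D5:**
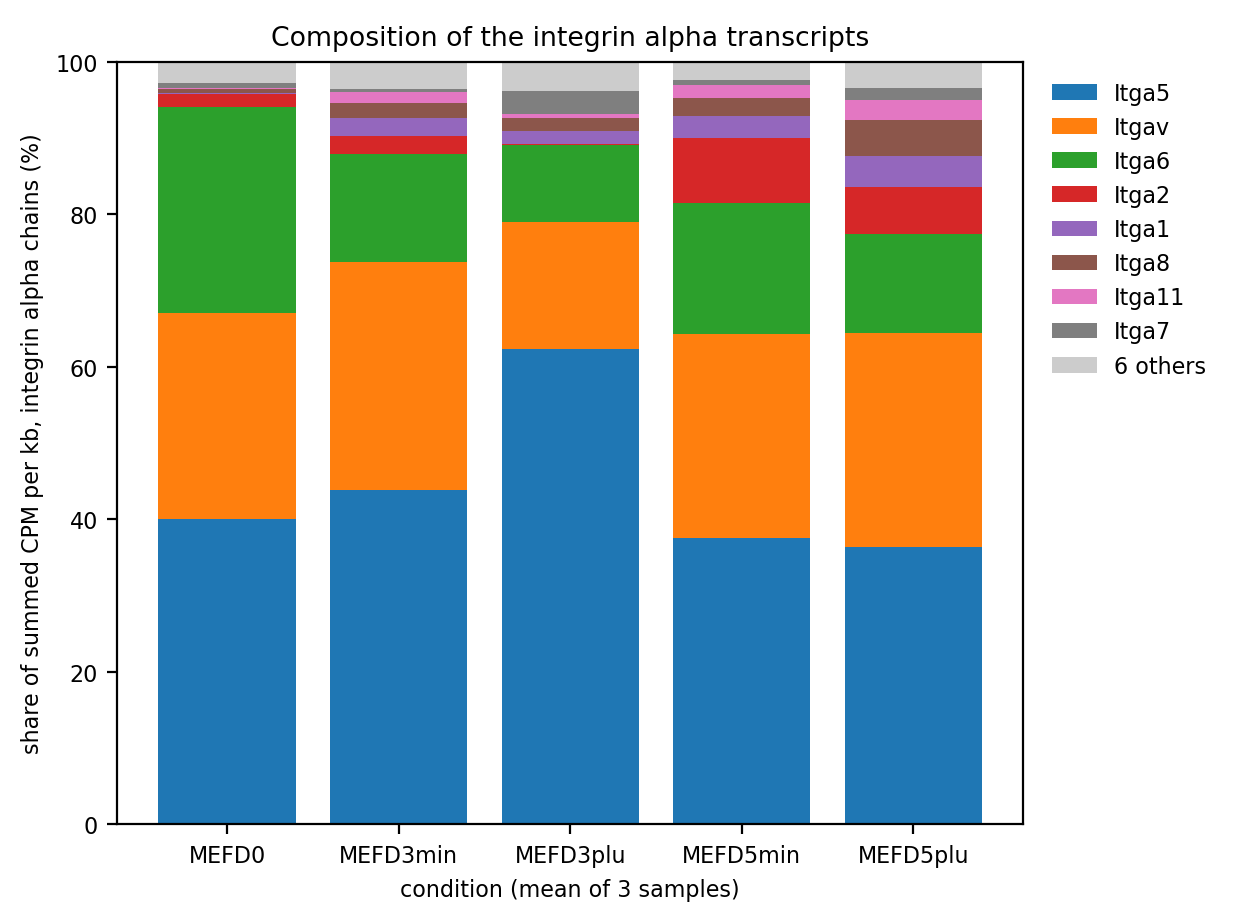
Share of each integrin alpha subunit in the summed alpha level (CPM per kb of exon, mean of 3 samples, in percent) for the 5 conditions, with the 8 named subunits stacked and the other 6 in grey. Itga5 takes 62.3% in MEFD3plu against 36.4 to 43.9% in the other conditions, and the share of Itga2 is 0.17% there and 8.59% in MEFD5min.

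Of the remaining alpha subunits, Itga8, an RGD receptor known from the kidney, ranged from 4.30 to 28.4 CPM, was lower with treatment at day 3 (log2 fold change -0.88 ± 0.12 SE, edgeR adjusted p = 8.12e-06) and not called at day 5 (log2 fold change 0.19 ± 0.11 SE, edgeR adjusted p = 0.17). Itga2b, the platelet fibrinogen receptor, ranged from 2.99 to 7.92 CPM and was lower at day 3 (log2 fold change -0.60 ± 0.18 SE, edgeR adjusted p = 0.0103), a call lost without MEFD3plu replicate 4 (edgeR adjusted p = 0.053). The 5 megakaryocyte and platelet markers summed to 1.61 to 2.25 CPM in MEFD3min and 0.41 to 1.44 CPM in MEFD3plu. Nearly all of this was Gp1bb, with means of 1.87 CPM in MEFD3min and 0.90 CPM in MEFD3plu. The part of these markers in the values of Itga2b was not tested. The megakaryocyte markers Pf4 and Gp6 had 0 counts in all samples. Itga9, a receptor of tenascin and VCAM1, Itga4, a VCAM1 and fibronectin receptor, and Itgae, a receptor of E-cadherin, passed with treatment at neither day, on values of 1.98 to 11.9, 0.11 to 0.52 and 0.14 to 1.13 CPM.

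Itgb1 (chr8:128685654-128733200), the common beta subunit of the collagen, laminin and fibronectin receptors, made up between 94.4 ± 0.631% and 97.7 ± 0.368% of the summed beta level per length in the condition means. It measured 1519, 1645 and 1546 CPM in MEFD0, 2589, 2297 and 2935 in MEFD3min and 1162, 1086 and 1324 in MEFD3plu. The MEFD3plu samples were below all others, 2.19-fold below MEFD3min (log2 fold change -1.13 ± 0.12 SE, edgeR adjusted p = 2.71e-07). Day 5 samples were at 2903, 2321 and 3045 CPM untreated and 2449, 2483 and 2572 CPM treated, which overlapped (log2 fold change -0.14 ± 0.12 SE, edgeR adjusted p = 0.334). The effects at the 2 days differed (log2 difference between the days -0.99 ± 0.16 SE, edgeR adjusted p = 9.53e-05). Treated cells rose 2.1-fold between them (edgeR adjusted p = 6.07e-07). The window around its start, on the plus strand at chr8:128685404-128685703, held a glucocorticoid receptor half-site, an Sp/KLF motif and a TEAD motif, the last of which is in 14.7% of all windows:
Itgb1: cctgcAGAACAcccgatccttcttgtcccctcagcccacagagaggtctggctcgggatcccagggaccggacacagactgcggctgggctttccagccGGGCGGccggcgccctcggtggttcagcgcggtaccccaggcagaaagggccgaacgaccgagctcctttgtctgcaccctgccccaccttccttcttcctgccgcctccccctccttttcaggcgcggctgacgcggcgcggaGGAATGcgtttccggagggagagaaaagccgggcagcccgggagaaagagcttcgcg

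Itgb3, Itgb5 and Itgb8, which pair with Itgav, were all lower with treatment at both days. Itgb3, the beta subunit of the vitronectin and platelet receptors, measured 29.7, 43.4 and 31.7 CPM in MEFD3min and 13.5, 13.2 and 12.4 in MEFD3plu (log2 fold change -1.42 ± 0.12 SE, edgeR adjusted p = 2.65e-08). At day 5 it measured 109, 95.4 and 99.7 CPM untreated and 21.9, 18.4 and 19.7 treated, a 5.08-fold difference (log2 fold change -2.34 ± 0.12 SE, edgeR adjusted p = 9.29e-11). Untreated cells rose 2.9-fold between days 3 and 5 (edgeR adjusted p = 1.61e-08) from 23.0, 23.9 and 23.0 CPM at day 0, and the treatment effect was larger at day 5 (log2 difference between the days 0.92 ± 0.17 SE, edgeR adjusted p = 2.44e-04).

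Itgb8, which with Itgav activates latent TGF-β, measured 14.4, 13.3 and 12.5 CPM in MEFD3min and 4.91, 5.8 and 3.83 in MEFD3plu (log2 fold change -1.47 ± 0.14 SE, edgeR adjusted p = 6.99e-08). It then measured 8.29, 8.1 and 8.16 CPM in MEFD5min and 6.17, 5.35 and 6.18 in MEFD5plu (log2 fold change -0.47 ± 0.14 SE, edgeR adjusted p = 0.0079). The groups did not overlap at either day, and MEFD0 held 6.89, 6.65 and 6.17 CPM. Itgb5, a vitronectin receptor subunit, ranged from 25.4 to 78.7 CPM and was lower at day 3 (-0.71 ± 0.12, edgeR adjusted p = 7.47e-05) and at day 5 (-0.98 ± 0.12, edgeR adjusted p = 4.57e-06).

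Itgb4, which pairs with Itga6 in the hemidesmosomes of epithelium, was scarce, with 48, 83 and 29 counts in MEFD3min and 11, 31 and 22 in MEFD3plu (log2 fold change -1.29 ± 0.39 SE, edgeR adjusted p = 0.009). In CPM the groups did not overlap, at 1.5, 2.33 and 0.975 and 0.375, 0.971 and 0.62, but without MEFD3min replicate 3 the log2 value was -0.91 with an edgeR adjusted p of 0.063. By day 5 the gene had 1.12, 1.13 and 0.919 CPM untreated and 1.1, 0.838 and 0.814 treated (log2 fold change -0.19 ± 0.38 SE, edgeR adjusted p = 0.705). MEFD0 held 2.71, 1.83 and 1.26 CPM. Of its exon bases, 7.66% overlap B230344G16Rik on the other strand.

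Itgb2 and Itgb7 are the beta subunits of leukocytes. Itgb2 measured 2.2, 3.29 and 3.27 CPM in MEFD0, 9.21, 11.9 and 8.51 in MEFD3min and 1.06, 1.32 and 1.1 in MEFD3plu, an 8.52-fold difference at day 3 (log2 fold change -3.09 ± 0.21 SE, edgeR adjusted p = 1.46e-09). Day 5 samples held 6.26, 7.4 and 7.22 CPM untreated and 3.87, 2.9 and 4.34 treated (log2 fold change -0.90 ± 0.19 SE, edgeR adjusted p = 7.12e-04). Treated samples were lower throughout at both days, and more so at day 3 (log2 difference between the days -2.19 ± 0.28 SE, edgeR adjusted p = 8.33e-06). Its alpha partners Itgal, Itgam, Itgax and Itgad had at most 11 counts in any sample.

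The 8 leukocyte markers summed to between 5.70 and 6.39 CPM in MEFD3min and 4.23 and 4.84 CPM in MEFD3plu. Most of the sum was Cd68, with means of 3.28 and 2.89 CPM in these conditions, and Lyz2, with 2.46 and 1.29 CPM. Ptprc, the pan-leukocyte CD45 gene, had 11 counts over the 3 MEFD3min samples and 0 over the 3 MEFD3plu samples, 5 and 0 over the MEFD5min and MEFD5plu samples, and Adgre1 had 0 in all conditions. At day 5 the sum was between 5.84 and 7.35 CPM untreated and 4.64 and 5.40 CPM treated, and in MEFD0, where Itgb7 was highest, between 2.09 and 2.78 CPM. The part of these genes in the values of Itgb2 and Itgb7 was not tested.

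Itgb7 measured 11.1, 10.5 and 7.93 CPM in MEFD0 and 0.783, 0.87 and 1.18 CPM in MEFD3min, a 10.5-fold fall (log2 fold change -3.39 ± 0.34 SE, edgeR adjusted p = 1.48e-07). In MEFD3plu it was at 0.512, 0.721 and 0.141 CPM, which just missed the test (log2 fold change -1.06 ± 0.44 SE, edgeR adjusted p = 0.051) and passed it with the replicate number as a block (log2 fold change -1.07, edgeR adjusted p = 0.043). At day 5 it measured 3.94, 6.66 and 5.54 CPM untreated and 2.17, 1.03 and 1.3 CPM treated, with no overlap (log2 fold change -1.83 ± 0.32 SE, edgeR adjusted p = 1.54e-04).

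Other genes of the same system were read from 4 lists. Of 17 other basement membrane genes tested, 9 were higher and 4 lower in MEFD3plu (median log2 fold change 0.47), and 4 were higher and 7 lower in MEFD5plu (median -0.11). Over all genes, as above, 28.0% were higher and 28.0% lower at day 3, and 26.3% higher and 24.2% lower at day 5, which is the background for the counts of all 4 lists. The collagen IV chains Col4a1 (log2 fold change 1.83 ± 0.17 SE, edgeR adjusted p = 9.59e-08) and Col4a2 (log2 fold change 1.47 ± 0.20 SE, edgeR adjusted p = 6.34e-06) rose at day 3 and were not called at day 5. Col15a1, a collagen of the outer basement membrane, rose at both days (log2 5.10 and 5.84). Ntn4, a netrin that binds laminin, fell at both (log2 -4.01 and -3.28, adjusted p = 3.67e-05 and 2.84e-07 in edgeR).

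Of 17 other integrin ligands, 6 were higher and 9 lower in MEFD3plu (median -0.39) and 6 higher and 7 lower in MEFD5plu (median -0.10), beside the same background of 28.0% in each direction at day 3 and 26.3% and 24.2% at day 5. Fibronectin (Fn1), the ligand of Itga5, fell at day 3 (log2 fold change -2.06 ± 0.24 SE, edgeR adjusted p = 1.35e-06) and day 5 (log2 fold change -1.43 ± 0.24 SE, edgeR adjusted p = 9.38e-05), as did tenascin C (Tnc, log2 -3.52 and -2.63). Periostin (Postn, log2 2.0 and 2.36) rose at both. Among 28 adaptors and signalling proteins at the inner face of the integrin, 6 were higher and 13 lower in MEFD3plu (median -0.21), and 5 higher and 16 lower in MEFD5plu (median -0.54). The parvin Parvb (log2 -1.57 and -1.55) and filamin A (Flna, log2 -0.84 and -1.03) fell at both days and tensin Tns1 rose at both (log2 3.46 and 2.14). Of 12 other laminin receptors and integrin partners, 4 were higher and 5 lower in MEFD3plu (median -0.03), and 4 higher and 1 lower in MEFD5plu (median 0.14). Syndecan Sdc4 rose at day 3 (log2 fold change 1.32 ± 0.07 SE, edgeR adjusted p = 4.91e-11) and the tetraspanin Cd9 fell (log2 fold change -1.79 ± 0.11 SE, edgeR adjusted p = 2.37e-10).

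The fibroblast markers, which are not members, summed to between 20764 and 28085 CPM in MEFD3min and 10946 and 12110 CPM in MEFD3plu, and to similar levels in MEFD5min and MEFD5plu (12006 to 13635 and 11318 to 12595 CPM). The 7 pericyte and smooth muscle markers summed to between 52.2 and 53.7 CPM in MEFD3plu and 227 and 307 CPM in MEFD3min. At day 5 they summed to between 228 and 240 CPM in MEFD5plu and 777 and 892 CPM in MEFD5min. Acta2, Tagln and Cspg4 made up nearly all of these sums. Myh11 had higher means with treatment, 0.47 against 0.12 CPM at day 3 and 1.23 against 0.081 CPM at day 5. Des did too, at 0.94 against 0.23 CPM and 1.96 against 0.14 CPM. The other markers of that list had lower means with treatment at both days. The part of either list in the integrin results was not tested. The endothelial sum was between 2.70 and 25.1 CPM and the Schwann cell and neural crest sum between 1.66 and 7.74 CPM over all samples.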

How the data were processed

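The authors deposited whole-number read counts per Ensembl gene, 1 file for each of the 15 samples, and the submitters' processing notes name TopHat2 2.1.0, HTSeq, DESeq2 and the builds GRCm38 and mm10. Whether counting used the strand is not given in the sources used here. Groups were taken from sample titles. Symbols, lengths and positions came from GENCODE M21 (46091 of 46603 IDs matched). Counts were filtered with filterByExpr, scaled by TMM and fitted over all 15 samples with edgeR 4.0.16 (quasi-likelihood test, R 4.3.3, limma 3.58.1), with Benjamini-Hochberg adjustment and a threshold of 0.05. CPM were scaled to the TMM-normalised library size, and levels of different members were compared only per kilobase of exon. The marker sums, and the part of single markers in them, were in CPM not divided by length. Standard errors were the size of the log2 fold change divided by the square root of F. The fit was tested on simulated data.

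The members and lists were chosen with earlier results of these data known. Members were named except 1 gene that is not reported here, which the counts include. Values in every sample were given for members with an adjusted p under 0.05 and at least 2-fold change with treatment at either day, and for the chain of highest level per length in each class.

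Total counts ran from 24030558 to 37281126, and replicates of 1 condition differed by more than counting noise. Intervals cover counting error only. Deviations of samples with the same number correlated at day 3 (r = 0.14, 0.23 and 0.36 for replicates 1, 3 and 4 across genes). Samples with different numbers were not compared in this way, so these values cannot tell whether the numbers pair the samples. The labels do not state a pairing. Alternatives were DESeq2 1.42.0, other scalings, filters and thresholds, a replicate block, the compared samples alone and each sample left out.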

Additional observations from a re-analysis of the deposited data

Results flagged for a closer look

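The effect of treatment, as a log2 fold change at day 3 minus that at day 5, differed between the days for 19 members, of which 18 are given here, by the interaction test (edgeR, Benjamini-Hochberg adjusted p under 0.05, 3 samples a condition). It was more negative at day 3 for Lama3 (-4.34), Itga2 (-3.11), Itgb2 (-2.19), Agrn (-2.09), Itga11 (-1.67), Lama2 (-1.48), Itga8 (-1.07), Itgb8 (-1.0), Itgb1 (-0.99), Itga1 (-0.82), Itga10 (-0.76) and Itgav (-0.71). It was more positive at day 3 for Itga5 (0.73), Itgb3 (0.92), Lamb1 (0.93), Itga3 (1.58), Itga7 (1.99) and Lama5 (4.87). The values of Lama3 and Lama5 rest on conditions with at most 3 counts a sample. Lama2 lost the call when any 1 of 9 samples was left out (adjusted p-values from 0.052 to 0.089), among them MEFD3min replicate 3, without which its value was -1.23. Itga10 lost it without MEFD3min replicate 3 (value -0.60, adjusted p = 0.052) or MEFD5plu replicate 3 (value -0.69, adjusted p = 0.050). With total counts alone both calls were lost too, for Lama2 (value -1.31, edgeR adjusted p = 0.065) and for Itga10 (value -0.58, edgeR adjusted p = 0.072).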

How the results depend on the processing

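No call changed direction for any member under the alternatives run, and the replicate block kept every call, adding Itgb7 at day 3 and Hspg2 at day 5 (members called with the block: 25 at day 3 and 20 at day 5). Asking for at least 2-fold left 15 members at day 3 (12 lower), 7 at day 5 (1 higher, 6 lower), 11 in the interaction (4 higher, 7 lower), 20 in MEFD3min against MEFD0 (17 higher, 3 lower), 13 in MEFD5min against MEFD3min (5 higher) and 17 in MEFD5plu against MEFD3plu (6 lower). The share of all genes called was not computed for any alternative. The counts given here show only how the members' own calls held, not whether they are unusual among all genes. The 6 members higher at day 5 became 2 with total counts alone or an adjusted p of 0.01, and 3 with at least 10 counts in every sample, a filter that tests fewer members. DESeq2 gave 24 members at day 3 and 18 at day 5. Leaving out each sample in turn gave 20 to 25 members called at day 3 (16 to 21 lower), 16 to 17 at day 5 (3 to 5 higher, 12 to 13 lower), and 17 to 21 in the interaction, and the higher count fell to 3 without MEFD5plu replicate 1 or 4. Leaving out 1 sample moved the fold of Hspg2 (1.53 times, MEFD3min replicate 3), Lama5 (3.68 times, MEFD5plu replicate 4, where its only count of that group lies) and, between MEFD0 and MEFD3min, Lama2 (2.1 times, MEFD0 replicate 1). Deviations of same-numbered samples correlated little at day 5 (r = 0.042, -0.0045 and 0.054). Depth limits Lama3, Lama5, Lamb3, Itga4 and Itgae, which had at most 56 counts in any sample.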
